A study of Mus musculus with 4 samples.

Results

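MHC class I heavy chains are the membrane-spanning or secreted chains that pair with beta-2 microglobulin and, in most cases, hold a short peptide for inspection by T cells or natural killer cells. The 10 genes described here were chosen by symbol, and all 10 were found among the 23284 symbols listed in each file: the classical genes H2-K1 and H2-D1, the Q region genes H2-Q2, H2-Q4, H2-Q6, H2-Q7 and H2-Q10, the T region genes H2-T22 and H2-T23, and the M region gene H2-M3. The RNA came from living podoplanin-positive cells of the mouse large intestine, sorted to be free of CD45, CD31 and EpCAM, that is of leukocytes, blood vessel cells and epithelium. There were 4 groups of 1 library each: C57BL/6J mice labelled as IL-10 knockout (KO), C57BL/6J wild type (WT) mice, BALB/c mice with a Rag2 KO, and BALB/c WT mice. IL-10 is a cytokine that restrains inflammation, and without Rag2 no mature T or B cells form. How many animals each library holds, and their age and sex, are not given in the labels, and both deletions are described there as knockouts with no further detail of the alleles.

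Classical class I molecules are made by nearly all nucleated cells, carry peptides from proteins broken down inside the cell to CD8 T cells, and are raised by interferons through the transactivator NLRC5, interferon regulatory factors and NF-kappaB. Nonclassical molecules are less variable between individuals and have narrower roles. The members lie on chromosome 17 (mm10) between 33996012, the end of H2-K1 furthest from the others, and 37274485, the end of H2-M3, in the H2 complex, which differs between inbred strains: C57BL/6J carries the b haplotype and BALB/c the d haplotype. The build used by the authors, mm10, was made from C57BL/6J, so BALB/c fragments were placed on the sequence of another haplotype. BALB/c mice also have a classical gene H2-L, which was looked for and has no row in the deposited values.

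The estimated depth of the libraries was 8340000 to 9930000 fragments, a 1.19-fold range. Values are FPKM, the authors' fragment numbers scaled to transcript length and library size, so levels can be set side by side between genes, within the limits of sequence sharing given below. The log2 ratio used throughout is the difference of log2 of FPKM plus 1 between a pair of libraries, and a gene counts as higher or lower past 2-fold. With 1 library a group there is no replicate error and no test, and "higher" and "lower" describe these libraries only. Il10 had 129.9 FPKM in the IL-10 KO-labelled library, against 3.33 FPKM in C57BL/6J WT, and a value for the whole gene cannot show whether part of it is deleted, so every direction below that involves this library rests on its label. Rag2 had 0.712 FPKM in Rag2 KO and was listed at 0 in BALB/c WT. Stromal markers were alike: the 9 fibroblast and stromal genes summed to 11297 FPKM in the IL-10 KO-labelled library, 11348 FPKM in C57BL/6J WT, 10461 FPKM in Rag2 KO and 10618 FPKM in BALB/c WT. The X-linked Xist had 44.9 FPKM in the IL-10 KO-labelled library, against 23.02 FPKM in C57BL/6J WT, and the Y-linked Ddx3y had 0.0269 FPKM in the IL-10 KO-labelled library, against 16.9 FPKM in C57BL/6J WT. In the BALB/c libraries Xist had 0.105 FPKM in Rag2 KO and 0.0509 FPKM in WT, and Ddx3y had 31.5 FPKM in Rag2 KO and 36.3 FPKM in WT.

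The likeness of the 10 sequences bears on how far each row can be read on its own. The same 60 coding bases of each gene are shown because they contain both kinds of sequence, stretches shared by the whole family and bases that tell its members apart. All 10 stretches lie in exon 2, which encodes part of the peptide groove, on build GRCm38 (mm10), and were read from GENCODE M21 transcripts. Capitals mark bases that differ from H2-K1 at the aligned position.
H2-K1 (chr17:33999909-33999968, minus strand): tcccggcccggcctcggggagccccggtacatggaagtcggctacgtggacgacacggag
H2-D1 (chr17:35263414-35263473, plus strand): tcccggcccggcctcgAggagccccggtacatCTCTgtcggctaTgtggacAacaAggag
H2-Q2 (chr17:35342635-35342694, plus strand): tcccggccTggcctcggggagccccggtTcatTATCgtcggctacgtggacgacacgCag
H2-Q4 (chr17:35379939-35379998, plus strand): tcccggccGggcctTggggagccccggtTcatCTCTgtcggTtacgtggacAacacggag
H2-Q6 (chr17:35425143-35425202, plus strand): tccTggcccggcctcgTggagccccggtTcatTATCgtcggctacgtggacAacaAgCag
H2-Q7 (chr17:35439487-35439546, plus strand): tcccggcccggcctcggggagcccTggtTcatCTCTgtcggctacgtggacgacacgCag
H2-Q10 (chr17:35470411-35470470, plus strand): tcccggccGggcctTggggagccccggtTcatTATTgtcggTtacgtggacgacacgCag
H2-T22 (chr17:36042034-36042093, minus strand): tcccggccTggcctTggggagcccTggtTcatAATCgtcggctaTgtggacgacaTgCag
H2-T23 (chr17:36032328-36032387, minus strand): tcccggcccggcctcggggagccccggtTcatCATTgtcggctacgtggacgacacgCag
H2-M3 (chr17:37270557-37270616, plus strand): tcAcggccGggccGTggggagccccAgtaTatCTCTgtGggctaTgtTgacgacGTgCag
Between 6 bases (H2-T23) and 16 bases (H2-M3) of the 60 differed from H2-K1. Over the whole coding sequence, H2-Q6 and H2-Q7 were the closest pair at 95.4% identity, with an identical run of 265 bases. H2-K1 and H2-D1 were 91.5% identical, and their longest identical run was 91 bases. H2-T22 and H2-M3 stood furthest from the rest, and their own pair was the lowest of the 45 at 71.3%.

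A fragment can be placed on a gene with confidence only where no other gene has the same bases. Of all stretches of 50 bases in its transcript, H2-T22 shared 44.7% with another annotated gene, H2-Q7 40.2%, H2-Q6 31.97%, H2-T23 28.8%, H2-Q4 24.3% and H2-D1 14.3%. H2-K1, H2-Q2 and H2-Q10 shared between 8.03% and 8.79%, and H2-M3 shared 0.576%. The main partner of H2-T22 was H2-T10, which held 37.9% of its stretches, and those of H2-Q7 were H2-Q5 (20.1%) and H2-Q6 (19.6%). With stretches of 100 bases the shares fell to 21.9% for H2-Q7, 14.2% for H2-T22 and 10.8% for H2-Q6. H2-Q8, H2-Q9 and H2-T9 have rows in the deposited values but were not in the GENCODE M21 gene set searched. Stretches shared only with them are therefore missing from these shares. Neither the read length nor the treatment of fragments that fit several genes is stated in the labels. The split of fragments within the pairs H2-Q6 and H2-Q7, and H2-T22 and H2-T10, is uncertain, as is any split with those unsearched genes.

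**Figure D1:**
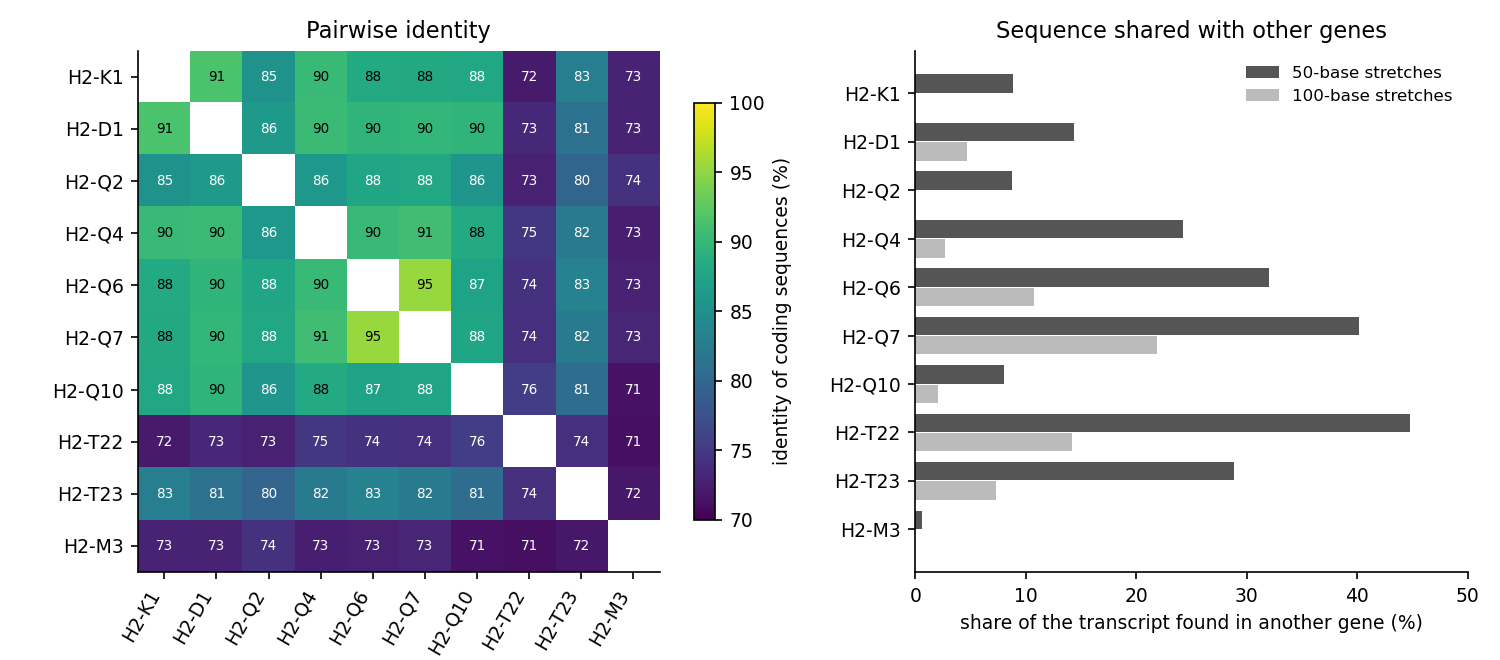
Left, identity of the coding sequences of each pair of the 10 genes in percent, from GENCODE M21 transcripts of the C57BL/6J genome. Right, share of each transcript's 50-base and 100-base stretches that also occur in a transcript of another gene, from 0.576% for H2-M3 to 44.7% for H2-T22 at 50 bases.

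The segments before the gene starts are shown because most of the members are higher together in both knockout libraries below, and because class I genes are known to share control elements there. They were read from RefSeq promoters on GRCm38.p6 (mm10); all 10 members had one. Capitals mark exact matches, on either strand, to the NF-kappaB type motif GGGATTCCC, the interferon regulatory factor type motif TTTCACTT, the CRE-like motif TGACG and the motif CCAAT. Each segment starts 30 bases before TTTCACTT, so H2-Q2 and H2-T23, which lack that motif, have none, and the segment of H2-D1 is left out because it overlaps an annotated exon.
H2-K1 (chr17:34000348-34000467, minus strand): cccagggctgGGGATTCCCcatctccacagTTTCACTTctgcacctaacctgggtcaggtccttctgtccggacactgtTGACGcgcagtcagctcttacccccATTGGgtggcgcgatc
H2-Q4 (chr17:35379434-35379553, plus strand): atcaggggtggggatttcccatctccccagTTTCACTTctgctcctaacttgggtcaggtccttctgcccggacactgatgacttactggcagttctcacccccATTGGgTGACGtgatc
H2-Q6 (chr17:35424668-35424787, plus strand): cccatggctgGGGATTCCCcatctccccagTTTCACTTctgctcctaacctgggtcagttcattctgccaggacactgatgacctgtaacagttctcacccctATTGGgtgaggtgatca
H2-Q7 (chr17:35439012-35439131, plus strand): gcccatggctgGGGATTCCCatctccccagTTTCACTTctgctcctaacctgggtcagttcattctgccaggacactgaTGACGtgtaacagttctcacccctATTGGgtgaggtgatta
H2-Q10 (chr17:35469904-35470023, plus strand): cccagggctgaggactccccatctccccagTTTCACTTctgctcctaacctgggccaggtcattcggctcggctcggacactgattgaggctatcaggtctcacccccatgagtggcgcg
H2-T22 (chr17:36042844-36042963, minus strand): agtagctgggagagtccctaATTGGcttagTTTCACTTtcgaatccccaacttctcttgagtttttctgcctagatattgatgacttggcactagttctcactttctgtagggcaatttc
H2-M3 (chr17:37270103-37270219, plus strand): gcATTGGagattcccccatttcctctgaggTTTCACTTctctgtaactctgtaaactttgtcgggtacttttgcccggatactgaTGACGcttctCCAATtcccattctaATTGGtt
Searched over the 250 bases before the start, TTTCACTT was found in 8 of the 10 members and in 1.44% of the 27025 promoters. H2-Q2 and H2-T23 were those without it. GGGATTCCC was found in 4 members, H2-K1, H2-D1, H2-Q6 and H2-Q7, and in 0.311% of all promoters. In those 4 members TTTCACTT began 19 or 20 bases downstream of it, and no other promoter of the 27025 held both motifs. H2-Q10, H2-T22 and H2-M3 have other bases in that place, as the printed segments show, and H2-Q4 has the motif there with an added T. Only exact matches were counted, so looser forms of the motif were not looked for. TGACG occurred in 6 members and in 17.9% of promoters, and CCAAT in 9 members, all but H2-Q10, and in 34.5% of promoters. These matches describe letters in a window and were searched after the promoters and the values had been seen, with the first motif shortened after a longer form had been tried. Related genes share promoter sequence by descent, so the members are not independent in such a count. H2-Q2 and H2-T23, without TTTCACTT, were past 2-fold higher in both knockout libraries, though H2-Q2 had few fragments in C57BL/6J. H2-K1, H2-D1, H2-Q4, H2-Q6 and H2-Q7, with it, were also past 2-fold higher in both. H2-T22, H2-M3 and H2-Q10, with it, had log2 ratios of 0.70, 0.76 and 0.11 in the IL-10 KO-labelled library over C57BL/6J WT. A link between motifs and ratios was not tested.

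The classical genes carried most of the class I heavy chain transcript. H2-D1 had 2296 FPKM in the IL-10 KO-labelled library, 618 FPKM in C57BL/6J WT, 1780.45 FPKM in Rag2 KO and 542 FPKM in BALB/c WT. It was the highest member in all 4 libraries. H2-K1 had 2128 FPKM in the IL-10 KO-labelled library, 489.6 FPKM in C57BL/6J WT, 540.1 FPKM in Rag2 KO and 164 FPKM in BALB/c WT. Among the members it came next after H2-D1 in both C57BL/6J libraries, and after H2-D1 and H2-Q4 in both BALB/c libraries. Together they made up 75.6% of the summed FPKM of the 10 members in the IL-10 KO-labelled library, 74.7% in C57BL/6J WT, 61.7% in Rag2 KO and 62.7% in BALB/c WT. In these values the division between classical and nonclassical members thus differed more between strains than between a knockout library and its wild type. H2-L has no row of its own, and BALB/c fragments were placed on a C57BL/6J sequence. A strain difference in transcripts and one in the placing of fragments cannot be told apart here.

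Among the nonclassical genes, H2-Q4 and H2-T23 were abundant everywhere and the others were low or variable. H2-Q4 had 460.1 FPKM in the IL-10 KO-labelled library, 186 FPKM in C57BL/6J WT, 619.99 FPKM in Rag2 KO and 190.4 FPKM in BALB/c WT. H2-T23, which encodes Qa-1, the molecule that shows class I leader peptides to natural killer cell receptors, had 288 FPKM in the IL-10 KO-labelled library, 123 FPKM in C57BL/6J WT, 473 FPKM in Rag2 KO and 152 FPKM in BALB/c WT. Both genes were higher in each knockout library than in either wild type. H2-M3, which presents N-formylated peptides from bacteria and mitochondria, had 29.0 FPKM in the IL-10 KO-labelled library, 16.7 FPKM in C57BL/6J WT, 39.9 FPKM in Rag2 KO and 18.9 FPKM in BALB/c WT. H2-T22, a ligand of gamma-delta T cells that presents no peptide, had 20.9 FPKM in the IL-10 KO-labelled library, 12.5 FPKM in C57BL/6J WT, 21.7 FPKM in Rag2 KO and 11.9 FPKM in BALB/c WT. In both of the last genes the knockout library was above the wild type of its strain, and the wild types lay close together.

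The Q region genes were the uneven ones. H2-Q6 and H2-Q7 encode Qa-2 molecules, which are held in the membrane by a lipid anchor. H2-Q6 had 303 FPKM in the IL-10 KO-labelled library, 12.6 FPKM in C57BL/6J WT, 129 FPKM in Rag2 KO and 15.2 FPKM in BALB/c WT. H2-Q7 had 316 FPKM in the IL-10 KO-labelled library, 16.2 FPKM in C57BL/6J WT, 24.8 FPKM in Rag2 KO and 0.611 FPKM in BALB/c WT. The last of these stands for about 8 fragments (exact 95% Poisson interval 3.45 to 15.8, counting error only), against about 310 in Rag2 KO. H2-Q10, which encodes a secreted class I molecule made mainly in liver, had 8.47 FPKM in the IL-10 KO-labelled library, 7.77 FPKM in C57BL/6J WT, 20.3 FPKM in Rag2 KO and 0.396 FPKM in BALB/c WT, the last of them about 7 fragments (2.81 to 14.4). Its C57BL/6J libraries were close together and its BALB/c libraries far apart. H2-Q2 had 2.004 FPKM in the IL-10 KO-labelled library, 0.257 FPKM in C57BL/6J WT, 110.4 FPKM in Rag2 KO and 30.3 FPKM in BALB/c WT, so both BALB/c libraries were far above both C57BL/6J libraries, where the values stand for about 18 and 2 fragments.

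**Figure D2:**
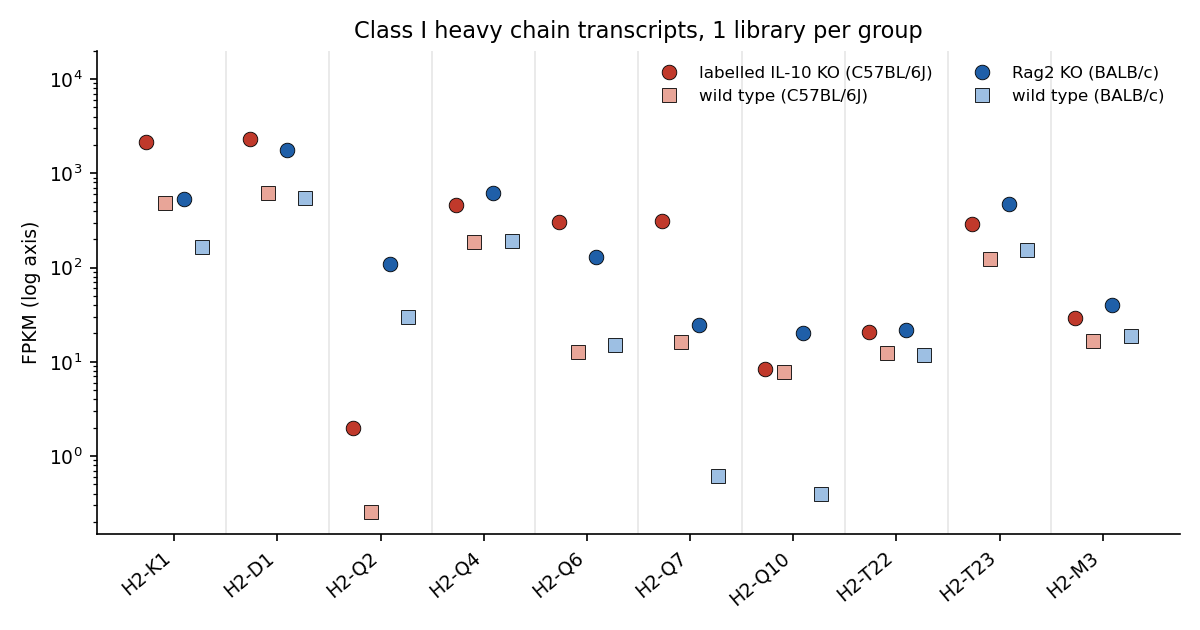
FPKM of the 10 genes on a log axis in the 4 libraries, 1 point per library (circles, knockout libraries; squares, wild type; red, C57BL/6J; blue, BALB/c). H2-D1 is the highest gene in every library, and H2-Q2, H2-Q7 and H2-Q10 have the widest spread, down to 0.257, 0.611 and 0.396 FPKM.

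The first question was how class I transcripts of colonic stroma differ between mice labelled IL-10 KO and WT mice of the same strain. All 10 members had a positive log2 ratio, and 7 were past 2-fold higher and 0 lower, against 10.14% and 3.82% of the 12790 genes with at least 1 FPKM in either library. Their median log2 ratio was 1.28, against -0.0018 over all genes compared. The classical genes were about 4-fold apart, with FPKM ratios of 4.35 for H2-K1 (log2 ratio 2.12) and 3.71 for H2-D1 (1.89). H2-Q6 and H2-Q7 stood furthest apart, at log2 ratios of 4.49 and 4.21, FPKM ratios of 24.1 and 19.5. Only 8.79% of the H2-K1 stretches of 50 bases occur in another gene, so its ratio depends less on the placing of shared fragments than that of H2-Q6 or H2-Q7. The summed FPKM of H2-Q6 and H2-Q7 gave 4.38, a value that depends less on how fragments are divided between them. It is not free of that division, since their transcripts differ in length (2085 and 1497 nt) and H2-Q5, which has no row, is not in the sum. With the rows of H2-Q8 and H2-Q9 added, the sum gave 4.28.

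The other Q region and the T and M region genes differed less. H2-Q4 had a log2 ratio of 1.30 and H2-T23 one of 1.22. H2-M3 (0.76) and H2-T22 (0.70) stayed under 2-fold, and for these the 95% counting interval of the log2 FPKM ratio ran between 0.52 and 1.07 and between 0.47 and 1.03. H2-Q10 was nearly level at 0.11, and it turned to -0.014 when FPKM were rescaled without small RNA rows. H2-Q2 is counted among the 7, with 1.26, but rests on about 18 against 2 fragments, and at a pseudocount of 5 it was 0.41, under 2-fold. Without a pseudocount its log2 FPKM ratio was 2.97, with a counting interval from 0.90 to 6.12.

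Markers of leukocytes were higher in the same library. Leukocytes make class I molecules too, and in bulk samples more cells of a type and more RNA per cell cannot be told apart. All 10 pan-leukocyte markers were past 2-fold higher, and their summed level was 967 FPKM in the IL-10 KO-labelled library, against 90.7 FPKM in C57BL/6J WT. Ptprc, which encodes CD45, had 43.1 FPKM in the IL-10 KO-labelled library, against 3.34 FPKM in C57BL/6J WT. For the same pair, the IL-10 KO-labelled library against C57BL/6J WT, the sums were 3834 against 9.42 FPKM for 6 neutrophil genes, 783 against 131 FPKM for 7 macrophage genes, 489 against 249 FPKM for 7 B and plasma cell genes, 89.5 against 6.40 FPKM for 7 T cell and innate lymphoid genes and 275 against 67.8 FPKM for 8 epithelial genes. Of these markers, Ngp and Cxcr2 were listed at 0 in C57BL/6J WT. The part of these cells in the class I values was not tested. Xist and Ddx3y levels also differed in this pair, as given above, and what goes with them cannot be told apart from the knockout label.

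The next question was how the same transcripts differ in mice that form no mature T or B cells. All 10 members again had a positive log2 ratio, 9 were past 2-fold higher and 0 lower, against 4.42% and 2.03% of 12336 genes, and the median was 1.72, against -0.0041 over all genes compared. A group of 5 members lay within a narrow band: H2-K1 at 1.72, H2-D1 at 1.71, H2-Q4 at 1.70, H2-T23 at 1.63 and H2-Q2 at 1.83, with FPKM ratios between 3.11 and 3.65. H2-Q6 had 3.01. H2-Q7 (4.004) and H2-Q10 (3.93) were the furthest apart, from wild type values of about 8 and 7 fragments. With a pseudocount of 5 they were 2.41 and 2.23, and with no pseudocount 5.35 (counting interval 4.35 to 6.57) and 5.68 (4.62 to 7.004). H2-M3 was just past 2-fold at 1.04, and at 0.91 to 0.98 under 3 of the alternative settings it was not. H2-T22 had 0.81.

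Leukocyte markers differed less in this pair, and B cell markers went the other way. The pan-leukocyte sum was 295 FPKM in Rag2 KO, against 169.9 FPKM in BALB/c WT, with 1 of 10 genes (Tyrobp) past 2-fold higher, and Ptprc had 11.5 FPKM in Rag2 KO, against 8.31 FPKM in BALB/c WT. The B and plasma cell sum was 2.63 FPKM in Rag2 KO, against 463 FPKM in BALB/c WT, with all 7 genes past 2-fold lower and Pou2af1 listed at 0 in Rag2 KO, and the T cell and innate lymphoid sum was 5.28 FPKM in Rag2 KO, against 15.6 FPKM in BALB/c WT, with 2 of the 6 genes compared past 2-fold lower, Cd3g listed at 0 in Rag2 KO and Cd3e level at a log2 ratio of 0.022. For Rag2 KO against BALB/c WT, the sums were 461 against 246 FPKM for macrophage genes, 242 against 23.4 FPKM for neutrophil genes, with Cxcr2 listed at 0 in BALB/c WT, and 112 against 19.999 FPKM for epithelial genes, all 8 of which were past 2-fold higher. Class I heavy chains were thus higher in a library with B cell markers near 0 and with higher neutrophil and epithelial markers. The part of any cell type in the class I values was not tested.

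**Figure D3:**
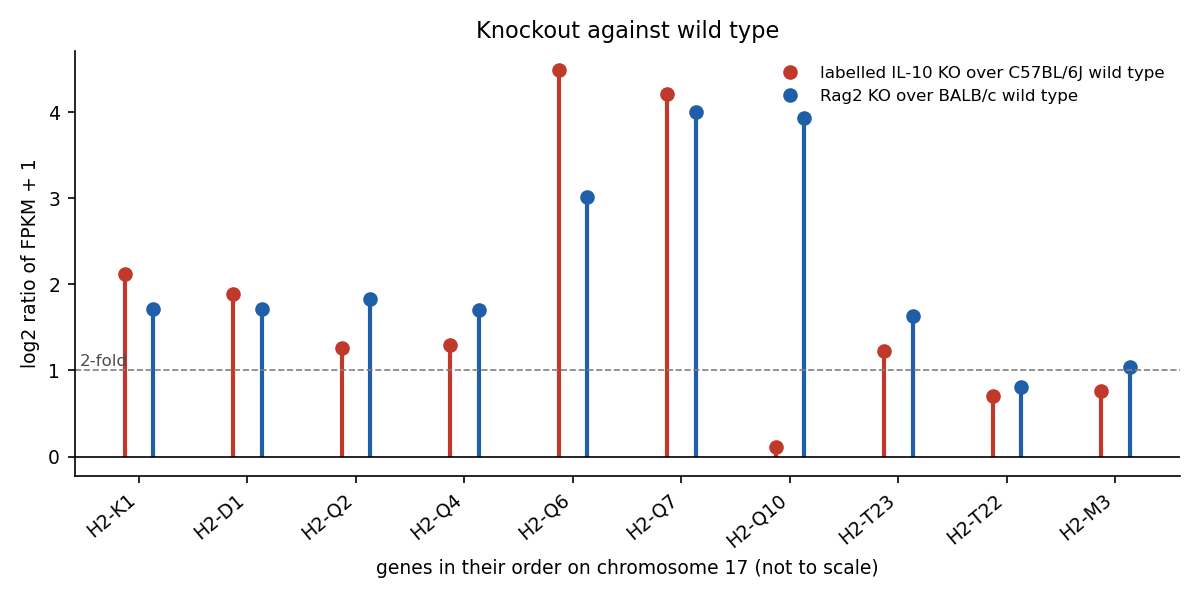
Log2 ratio of FPKM plus 1 of each gene in the IL-10 KO-labelled library over C57BL/6J WT (red) and in Rag2 KO over BALB/c WT (blue), genes in chromosomal order and 1 library per group. All ratios are above 0; H2-Q6 and H2-Q7 are the highest in red, and H2-Q10 is at 0.11 in red and at 3.93 in blue.

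Set side by side, the knockout comparisons share no library. Leaving H2-Q7 and H2-Q2 aside, 6 members had log2 ratios that differed by 0.41 or less: H2-D1 (the IL-10 pair 0.18 above the Rag2 pair), H2-K1 (0.40 above), H2-T22 (0.10 below), H2-M3 (0.28 below), H2-Q4 (0.40 below) and H2-T23 (0.41 below). For H2-Q7 and H2-Q2, with about 8 fragments in BALB/c WT and about 2 in C57BL/6J WT, the difference changed sign with the pseudocount and no direction is given. H2-Q7 had 4.21 in the IL-10 pair and 4.004 in the Rag2 pair at a pseudocount of 1, 4.28 and 5.13 at 0.1, and 3.92 and 2.41 at 5. H2-Q2 had 1.26 in the IL-10 pair and 1.83 in the Rag2 pair at a pseudocount of 1, and 2.56 and 1.86 at 0.1. H2-Q6 was 1.48 higher in the IL-10 pair and H2-Q10 3.82 higher in the Rag2 pair. None of these differences has a replicate error.

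The genes of the class I pathway were looked at beside the heavy chains, from a list of 22 that was set with earlier results of these data known. In the IL-10 KO-labelled library 9 of the 22 were past 2-fold higher and 0 lower (median 0.96 on the log2 scale), against 10.14% higher and 3.82% lower of all genes compared. In Rag2 KO 13 were higher and 0 lower (median 1.31), against 4.42% and 2.03%. B2m, the light chain that every classical heavy chain needs, had 7098 FPKM in the IL-10 KO-labelled library, against 1548 FPKM in C57BL/6J WT (log2 ratio 2.197), and 6239 FPKM in Rag2 KO, against 1782 FPKM in BALB/c WT (log2 ratio 1.81). Nlrc5, the class I transactivator, was higher in both pairs: it had 21.0 FPKM in the IL-10 KO-labelled library, against 1.24 FPKM in C57BL/6J WT (log2 ratio 3.30), and 20.6 FPKM in Rag2 KO, against 1.398 FPKM in BALB/c WT (3.17). Irf1, a further activator, which was abundant throughout, had 0.14 in the IL-10 pair and 0.60 in the Rag2 pair, and Rfx5, Rfxank and Rfxap, subunits of the factor that binds the X box, lay between -0.30 and 0.046 in both.

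Of the 9 genes of peptide transport and loading 2 were past 2-fold higher in the IL-10 pair and 5 in the Rag2 pair. Tap1, a subunit of the peptide transporter, had log2 ratios of 2.61 in the IL-10 pair and 2.30 in the Rag2 pair, and its partner Tap2 had 0.95 in the IL-10 pair and 1.68 in the Rag2 pair. Of the 5 proteasome genes 4 were past 2-fold higher in the IL-10 pair and all 5 in the Rag2 pair, with Psmb9 at 2.19 and 2.43. The general chaperone genes Calr, Canx and Pdia3 stayed between 0.24 and 0.74. Between the wild types 0 of the 22 partners were past 2-fold apart, where 1.81% of all genes were higher and 2.17% lower, so a count near 0 is also the background for 22 genes.

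**Figure D4:**
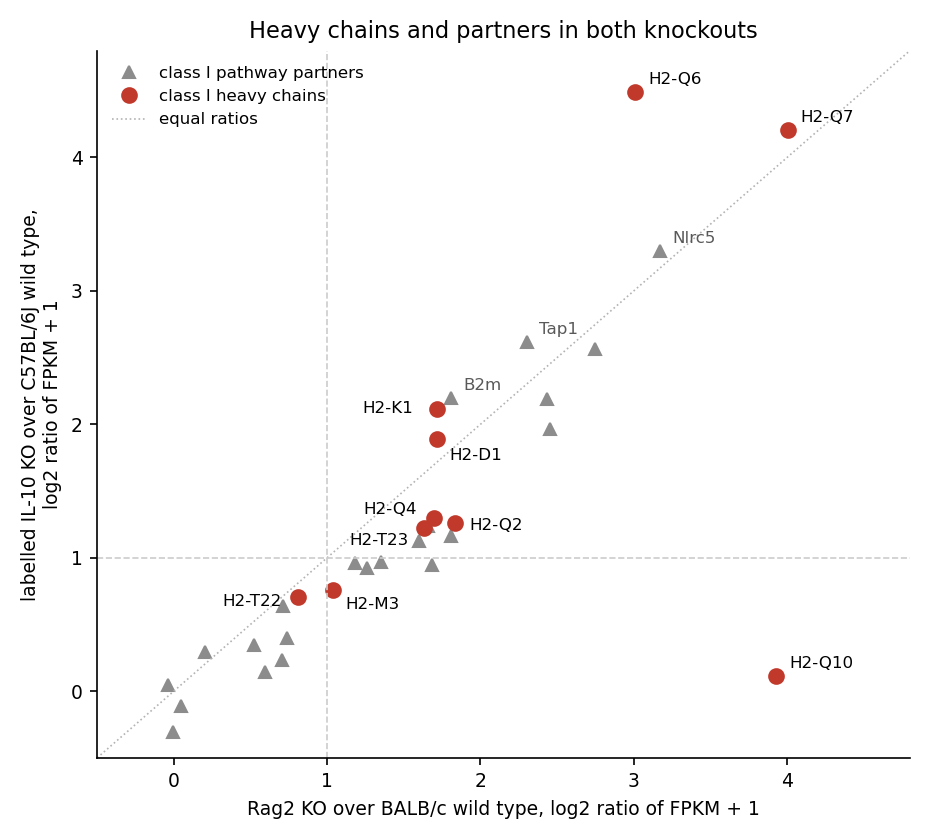
Each point is 1 gene, with its log2 ratio of FPKM plus 1 in Rag2 KO over BALB/c WT on the x axis and in the IL-10 KO-labelled library over C57BL/6J WT on the y axis (circles, 10 heavy chains; triangles, 22 pathway partners; dashed lines, 2-fold; dotted line, equal ratios). Most heavy chains lie near the dotted line with B2m, H2-Q6 lies above it and H2-Q10 far below it.

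The heavy chains were also summed and set against the light chain. The summed FPKM of the 10 members was 0.825 times that of B2m in the IL-10 KO-labelled library, 0.958 times in C57BL/6J WT, 0.603 times in Rag2 KO and 0.631 times in BALB/c WT. The sum itself was 5852 FPKM in the IL-10 KO-labelled library, 1483 FPKM in C57BL/6J WT, 3760.5 FPKM in Rag2 KO and 1125 FPKM in BALB/c WT, with log2 ratios of 1.98 for the IL-10 pair and 1.74 for the Rag2 pair. Within it, H2-Q6 and H2-Q7 together had a higher share in each knockout library: they made up 10.58% in the IL-10 KO-labelled library, against 1.94% in C57BL/6J WT, and 4.10% in Rag2 KO, against 1.402% in BALB/c WT. H2-T22, H2-T23 and H2-M3 made up 5.78% in the IL-10 KO-labelled library, against 10.26% in C57BL/6J WT, and 14.2% in Rag2 KO, against 16.3% in BALB/c WT.

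The comparison of the wild types addresses how the strains, and with them the haplotypes, differ in these values. It shares a library with each comparison above. H2-Q2 was past 2-fold higher in BALB/c, and H2-K1, H2-Q7 and H2-Q10 were past 2-fold lower, against 1.81% and 2.17% of 12290 genes. H2-Q2 had a log2 ratio of 4.64 (6.88 with no pseudocount, counting interval 5.02 to 9.93). H2-K1 had -1.58, an FPKM ratio of 0.334. H2-Q7 had -3.41 and H2-Q10 -2.65, and at a pseudocount of 5 these were -1.92 and -1.24. The other 6 members, H2-D1, H2-Q4, H2-Q6, H2-T22, H2-T23 and H2-M3, lay between -0.19 and 0.30. The value of H2-Q6 depends on the split of fragments among like genes. Summed with H2-Q7 it gave -0.83, and with H2-Q8 and H2-Q9 also added -1.08, past 2-fold lower. The median of the members was -0.014, against 0.0044 over all genes.

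The difference of H2-K1 between strains was there in the knockout libraries too. H2-K1 had 0.303 times the FPKM of H2-D1 in Rag2 KO and 0.302 times in BALB/c WT, and 0.927 times in the IL-10 KO-labelled library and 0.792 times in C57BL/6J WT. Between the knockout libraries, Rag2 KO over the IL-10 KO-labelled library, the log2 ratio was -1.98 for H2-K1, 5.21 for H2-Q2 and -3.62 for H2-Q7. H2-Q6 and H2-Q10 did not keep their direction: H2-Q6 was -1.22 there and 0.25 between the wild types, and H2-Q10 was 1.17 there and -2.65 between the wild types. Cell markers also differed between the wild types. The 8 epithelial genes summed to 19.999 FPKM in BALB/c WT, against 67.8 FPKM in C57BL/6J WT, with 5 past 2-fold lower and 0 higher. The 10 pan-leukocyte genes summed to 169.9 FPKM in BALB/c WT, against 90.7 FPKM in C57BL/6J WT, with 3 higher and 0 lower. Strain, haplotype, cell content and the differing Xist and Ddx3y levels of the strains' libraries cannot be told apart in these ratios. The fit of BALB/c fragments to a C57BL/6J sequence cannot be told apart from them either. Nor can the part of H2-L fragments, for which there is no row.

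**Figure D5:**
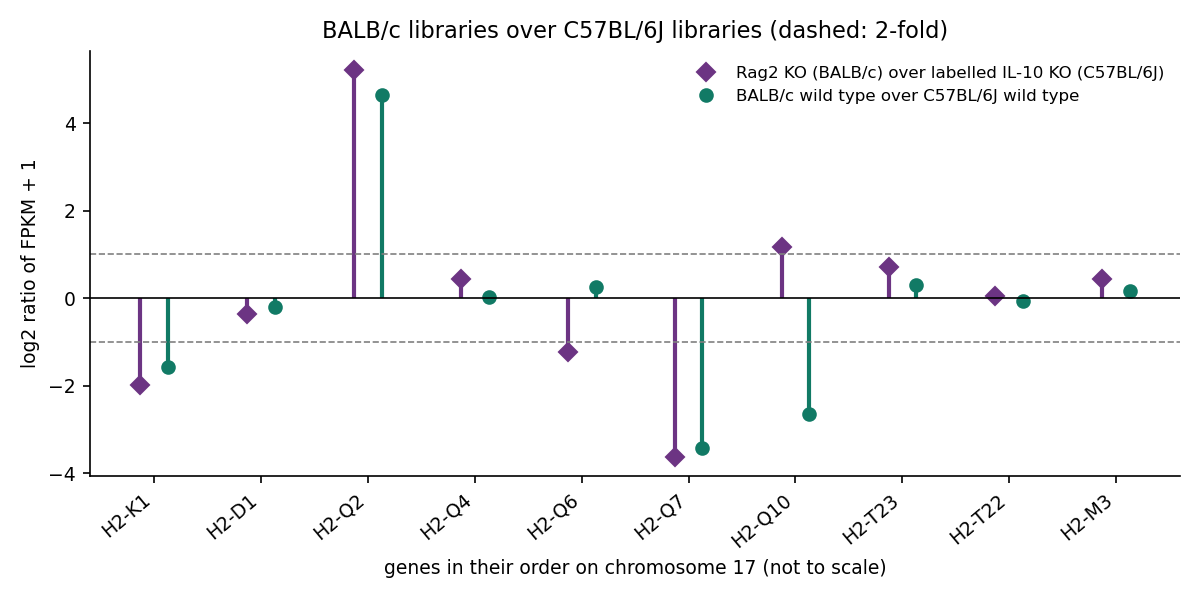
Log2 ratio of FPKM plus 1 of each gene in Rag2 KO over the IL-10 KO-labelled library (diamonds) and in BALB/c WT over C57BL/6J WT (circles), genes in chromosomal order. H2-Q2 is at 5.21 and 4.64, H2-K1 at -1.98 and -1.58, and H2-Q10 lies on opposite sides of 0, at 1.17 and -2.65.

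Other class I and class I-like genes were read from a list of 37 symbols, of which 34 were in the files. In the IL-10 pair 7 of the 12 with at least 1 FPKM were past 2-fold higher, and in the Rag2 pair 5 of 12, with 0 lower in both. The genes inside the H2 complex were those past 2-fold, with the exception of Cd1d1, which presents lipids and had 9.32 FPKM in the IL-10 KO-labelled library, against 3.99 FPKM in C57BL/6J WT (1.049). H2-Q8, a further Qa-2 gene, had 75.1 against 6.68 FPKM (3.31) in the IL-10 pair and 15.1 against 0.206 FPKM (3.74) in the Rag2 pair. In the IL-10 pair and then the Rag2 pair, H2-T24 had log2 ratios of 2.80 and 2.44, H2-T9 1.17 and 1.44, H2-T10 2.44 and 0.97, and H2-M2 2.06 and 1.22. H2-M2 was low, at 7.12 against 0.953 FPKM in the IL-10 pair. It had 1.33 FPKM in Rag2 KO and was listed at 0 in BALB/c WT, so that ratio depends on the pseudocount. H2-Q9 had 13.8 FPKM in the IL-10 KO-labelled library and was listed at 0 in C57BL/6J WT. H2-Q1 was listed at 0 in both C57BL/6J libraries and had 14.99 FPKM in Rag2 KO, against 3.81 FPKM in BALB/c WT.

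Class I-like genes outside the complex were level or somewhat lower, with the exception of Cd1d1 in the IL-10 pair. Fcgrt, the receptor that recycles antibodies, had log2 ratios of -0.54 in the IL-10 pair and -0.14 in the Rag2 pair. Mr1, which presents vitamin metabolites, had -0.69 and -0.37, Procr, the protein C receptor, -0.69 and -0.60, and Hfe, a regulator of iron uptake, -0.018 and 0.11. The pseudogene H2-K2, named after its values were seen, had 14.1 FPKM in the IL-10 KO-labelled library, against 9.94 FPKM in C57BL/6J WT, and 19.7 FPKM in Rag2 KO, against 5.30 FPKM in BALB/c WT.

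Members differed in which genes their levels tracked over the 4 libraries, measured as the Euclidean distance of log2 FPKM plus 1 after centring each gene. The 8813 genes compared had at least 5 FPKM in some library and an established symbol. Small RNA, predicted, clone, pseudogene and antigen receptor segment names were left out. The nearest genes to H2-T23 were Ifi204 (0.17), Irf7 (0.26), H2-Q4 (0.29), Ccl8 (0.30) and Vcam1 (0.32), of which Irf7 is an interferon-induced regulator, Ccl8 a chemokine and Vcam1 an adhesion molecule for leukocytes. For H2-K1, whose pattern includes the strain difference, they were Pigr (0.22), Ifi205 (0.23), Il33 (0.29), Rspo1 (0.35) and Krt7 (0.49). H2-Q7 had no near neighbour: the closest were H2-Q8 (1.249), Agr2 (1.46), Spink4 (1.59), Tff3 (1.79) and Npy1r (2.03). Agr2, Spink4 and Tff3 are genes of goblet cells, and the sum of the 8 epithelial markers, Tff3 among them, was 275 FPKM in the IL-10 KO-labelled library, 67.8 FPKM in C57BL/6J WT, 112 FPKM in Rag2 KO and 19.999 FPKM in BALB/c WT. H2-Q7 ranked the libraries in the same order, as did H2-K1 and H2-D1, and the part of epithelial cells in these values was not tested. With 4 libraries such distances are descriptions only. The closest pair of members was H2-Q4 and H2-T23, and the furthest was H2-Q2 and H2-Q7 (8.83).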

How the data were processed

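Messenger RNA libraries were made from sorted stromal cells of the mouse large intestine, 1 library in each of 4 groups. The deposited values are FPKM, computed by the authors, with 1 value for each of 23284 gene symbols. Per the submitters' processing notes, Bowtie2 2.2.8 and TopHat2 2.1.1, Cuffdiff 2.2.1 and SAMtools 0.1.18 are named, without their roles, for mouse build mm10. RNA was extracted as total RNA with a miRNeasy kit and made into stranded mRNA libraries, per the labels' protocols. Not given in the sources used here: the annotation, the strand setting, and what was done with fragments that fit several genes.

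Log2 ratios were computed here from the deposited FPKM plus a pseudocount of 1, which understates the change of low genes. Genes with at least 1 FPKM in either library were compared, and those at least 2-fold apart were counted. Depth was estimated from genes under 1 FPKM with a single transcript of 1000 to 5000 nt, as the depth at which the largest share of them equals 1 fragment, with a length offset of 200 nt and a tolerance of 3%. Between 16.1% and 19.96% of these genes did, so the depths and fragment numbers are approximate. Fragment numbers and their exact 95% intervals cover counting error only. Coding sequences and shared stretches came from GENCODE M21, promoters and positions from RefSeq GRCm38.p6. The count of genes past 2-fold and the depth estimate were tested on simulated data. Python 3.11.15, pandas 2.3.3, scipy 1.17.1 and Biopython 1.88 were used. Named genes were the 10 members, other class I genes with at least 5 FPKM, pathway partners, and the 5 genes nearest in pattern to H2-K1, H2-T23 and H2-Q7. The members and lists were chosen with earlier results of these data known. Alternatives were other pseudocounts, filters, thresholds and scalings, and sums over like genes.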

Additional observations from a re-analysis of the deposited data

Results flagged for a closer look

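H2-Q9 and a pair of marker lists went opposite ways in the knockout comparisons, and these differences were not tested. H2-Q9 had a log2 ratio of 3.89 in the IL-10 KO-labelled library over C57BL/6J WT and of -0.33 in Rag2 KO over BALB/c WT, a difference of 4.22. These ratios depend on the pseudocount, since the gene was listed at 0 in C57BL/6J WT and Rag2 KO and had 0.254 FPKM in BALB/c WT. The median of the B and plasma cell markers was 2.32 in the IL-10 pair and -2.48 in the Rag2 pair, a difference of 4.804. That of the T cell and innate lymphoid markers was 2.83 in the IL-10 pair and -0.84 in the Rag2 pair, a difference of 3.67.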

How the results depend on the processing

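With 1 library a group, no library could be left out of a comparison. No paired analysis was possible because each group holds 1 library and the labels number none of them. The count of members past 2-fold higher was 7 in the IL-10 pair and 6 to 7 under the alternative pseudocounts, filters and scalings. It was 9 in the Rag2 pair and 8 to 9 under the same alternatives. At a threshold of 4-fold it was 3 in each pair, and the share of all genes past 4-fold was not computed. Those of the Rag2 pair include H2-Q7 and H2-Q10, with about 8 and 7 fragments in BALB/c WT. Between the wild types 1 member was higher and 3 lower under every pseudocount, filter and scaling. At a pseudocount of 0.1 the median log2 ratio of the members in the IL-10 pair was 1.60. When the 5 H2-Q members were summed, BALB/c WT over C57BL/6J WT gave 0.086, which is the opposite direction to H2-Q7 and H2-Q10 on their own. Rescaling without small RNA rows moved the median of all genes to -0.12 in the IL-10 pair and -0.14 in the Rag2 pair, so ratios there are to be read relative to those. Scaling by stromal markers was added after the data had been seen and gave medians of the members of 1.27 and 1.74. Depth limits H2-Q2 in C57BL/6J and H2-Q7 and H2-Q10 in BALB/c WT.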
